A study of Mus musculus with 5 samples.

Results

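Within a sort for tdTomato from the femur marrow of mice, a small fraction of cells carried abundant transcripts of the complement component C1q and of the receptor Csf1r. These C1q macrophages were taken as the cells with at least 500 genes, at least 1000 unique molecular identifiers (UMIs, the molecule counts of the assay), under 25% mitochondrial UMIs, Cxcl12 below 150 UMIs per 10000, at least 10 UMIs of C1qa, C1qb and C1qc together, and at least 1 UMI of Csf1r. The rule kept 568 cells out of 47829 that passed the gene, UMI and mitochondrial filter and 57968 deposited. The cells were selected on the measured values of C1qa, C1qb, C1qc, Csf1r and Cxcl12, whose levels are therefore a description and support nothing.

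All mice carried Lepr-cre and the R26R-tdTomato reporter, in which Cre driven from the leptin receptor locus switches on a red fluorescent protein; in marrow that locus is mainly active in stromal cells. The study compared uninjured marrow with marrow regrown after ablation, a surgery in which the marrow of the femur is removed. Control is uninjured marrow at 15 weeks. Naive marrow had 1 ablation, at 13 weeks, and exhausted marrow had 2, at 9 and 13 weeks, and both were collected at 15 weeks. Aged is uninjured marrow at 18 months. Aged-injury is marrow at 18 months, taken 1 week after 1 ablation. Each group is 1 BD Rhapsody library, and the number of animals behind a library is not given, so no difference between groups has a replicate check and no p-value is given. Intervals are 95% counting intervals over UMIs or cells and cover neither animals nor libraries.

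C1q is the first component of the classical complement pathway, built from the products of C1qa, C1qb and C1qc, and tissue macrophages are its main source. Marrow macrophages sit at the centre of erythroblast islands, engulf the nuclei that maturing erythroblasts expel, and recycle the iron of old red cells through haem oxygenase (Hmox1) and the iron exporter ferroportin (Slc40a1). Spic, a transcription factor of the PU.1 family, is needed for the iron-recycling macrophages of the spleen red pulp and is also present in marrow macrophages that bear Vcam1.

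Spic itself was among the genes that marked these cells, and its family binds a purine-rich core, which was searched for as GAGGAA on both strands. The 250 bases before the start of 4 genes high in these cells are given here from RefSeq's table for GRCm38.p6, in lower case with each match to that core on either strand in capitals. C1qb (chr4:136886201-136886450, minus strand) and C1qc (chr4:136892915-136893164, minus strand) encode the complement chains, Fcna (chr2:25627975-25628224, minus strand) encodes ficolin A, a lectin of the complement system, and Mrc1 (chr2:14229164-14229413, plus strand) encodes the mannose receptor. C1qb and C1qc held 1 match each, and Fcna and Mrc1 held 3 each, none overlapping another.

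C1qb: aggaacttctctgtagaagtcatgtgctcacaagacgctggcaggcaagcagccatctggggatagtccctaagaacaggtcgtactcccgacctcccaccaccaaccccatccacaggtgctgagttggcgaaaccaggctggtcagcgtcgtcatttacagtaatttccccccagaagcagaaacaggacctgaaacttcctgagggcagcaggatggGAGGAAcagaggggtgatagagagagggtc
C1qc: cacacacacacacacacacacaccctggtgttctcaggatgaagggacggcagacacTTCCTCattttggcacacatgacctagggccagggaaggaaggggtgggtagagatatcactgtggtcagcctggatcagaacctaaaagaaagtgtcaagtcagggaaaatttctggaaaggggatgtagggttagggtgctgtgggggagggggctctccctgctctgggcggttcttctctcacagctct
Fcna: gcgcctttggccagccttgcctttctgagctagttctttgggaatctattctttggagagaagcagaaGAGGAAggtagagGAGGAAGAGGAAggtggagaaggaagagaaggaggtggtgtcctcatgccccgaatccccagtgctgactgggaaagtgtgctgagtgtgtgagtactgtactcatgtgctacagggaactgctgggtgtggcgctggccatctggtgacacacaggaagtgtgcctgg
Mrc1: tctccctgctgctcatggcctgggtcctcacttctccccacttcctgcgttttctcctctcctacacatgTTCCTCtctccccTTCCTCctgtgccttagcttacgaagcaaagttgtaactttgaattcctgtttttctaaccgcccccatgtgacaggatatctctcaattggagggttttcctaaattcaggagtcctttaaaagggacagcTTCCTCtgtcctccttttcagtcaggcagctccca

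Axl, a receptor for apoptotic cells, held 1 match in its 250 bases, whereas Ms4a7, Spic, Mertk and Gpnmb held 0. Of 32851 RefSeq promoters of this length, 7639 (23.3%) held the core on either strand, so a match is common and is given as a description of the sequence only. C1qa, Vcam1 and Slc40a1 had no entry in the table.

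The share of C1q macrophages was lowest in aged-injury and highest in exhausted, each from 1 library. Of the cells that passed the filter they were 0.724% in control (67 of 9253, interval 0.562 to 0.919), 2.33% in naive (122 of 5242, 1.94 to 2.77) and 5.77% in exhausted (362 of 6277, 5.20 to 6.37). At 18 months they were 0.146% of the cells in aged (11 of 7560, 0.0727 to 0.260) and 0.0308% of those in aged-injury (6 of 19497, 0.0113 to 0.0670). The share was 3.21-fold higher in naive than in control (2.37 to 4.40), 7.96-fold higher in exhausted than in control (6.12 to 10.5) and 2.48-fold higher in exhausted than in naive (2.01 to 3.07). It was 4.98-fold lower in aged than in control (2.61 to 10.4), 4.73-fold lower in aged-injury than in aged (1.60 to 15.6) and 75.6-fold lower in aged-injury than in naive (33.8 to 210.1).

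These are shares of a gate on tdTomato, and the other cells in the gate moved too. Of the filtered cells, 3359 of 9253 had Cxcl12 below 150 per 10000 in control, 3242 of 5242 in naive, 4252 of 6277 in exhausted, and 2182 of 7560 and 8247 of 19497 in the aged and aged-injury libraries. Over these low-Cxcl12 cells the macrophage shares were 1.99%, 3.76%, 8.51%, 0.504% and 0.0728% in the same order. The fold differences were then smaller between the young libraries, at 1.89-fold for naive over control, 4.27-fold for exhausted over control and 2.26-fold for exhausted over naive. Their order did not change. A larger number of macrophages and a smaller number of other cells in the gate cannot be told apart from shares.

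**Figure D1:**
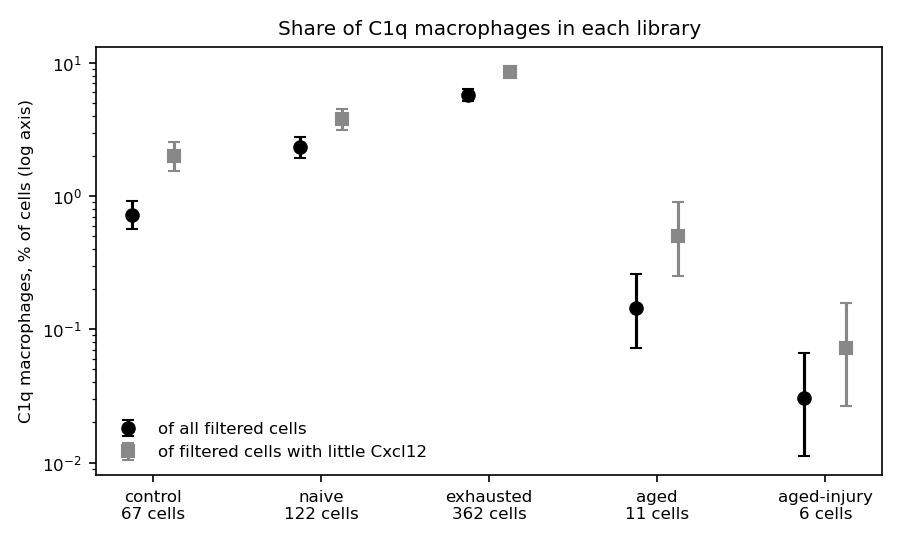
Share of C1q macrophages in each library, as percent of cells on a log axis, over all filtered cells (circles) and over filtered cells with Cxcl12 below 150 UMIs per 10000 (squares), with exact 95% intervals. Both denominators put exhausted highest, at 5.77% and 8.51%, and aged-injury lowest, at 0.0308% and 0.0728%.

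The macrophages were deeply sequenced compared with their libraries. Their median was 18102 UMIs in control, 18950.5 in naive, 19180.5 in exhausted, and 18108 and 21502.5 in the aged and aged-injury libraries, between 2.15 and 2.71 times the median of all filtered cells. Summed over cells they gave 1245825, 2501541, 7386404, 210296 and 163931 UMIs, so the 2 libraries from mice of 18 months rest on 11 and 6 cells. Of the 57947 distinct cell barcodes deposited, 21 occurred in more than 1 library, and 0 of these were macrophages. No doublet caller was run.

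Most cells lay well inside the C1q threshold. The summed C1q count had a median of 170 UMIs in control, 192.5 in naive, 172.5 in exhausted, and 131 and 193.5 in the aged and aged-injury libraries, against a threshold of 10. Just inside the C1q threshold, 13 cells had 10 to 14 UMIs, and just outside it 20 cells had 5 to 9. The inside cells had 502 CPM (UMIs of a gene per 1000000 UMIs of the cells summed) of the macrophage receptor Adgre1 and 569 of Ms4a7, and the outside cells 238 and 104. At the Cxcl12 limit, 11 cells lay at 100 to 150 per 10000 and 8 at 150 to 200. In all, 19 cells met the C1q and Csf1r conditions but had Cxcl12 at 150 or more, and 12 cells had enough C1q but no Csf1r UMI. Of the 19 cells, 9 were from control, 2 from naive and 8 from exhausted, beside 67, 122 and 362 cells kept. The Cxcl12 limit therefore left out relatively more cells in control.

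Few of these cells showed the reporter by which they were sorted. A tdTomato UMI was seen in 13.4% of macrophages in control, 6.56% in naive, 5.80% in exhausted, and in 1 of 11 aged and 1 of 6 aged-injury cells. Among the Cxcl12-rich stromal cells of the same libraries the share was 50.7%, 43.1%, 40.5%, 43.1% and 50.7%, at median depths of 7605 to 10053.5 UMIs against 18102 to 21502.5 for the macrophages. Cd79-positive cells, which are of the B lineage and serve as background, had 2.53%, 1.45%, 1.61%, 4.02% and 20%, at median depths of 5264.5 to 7274 UMIs.

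The label held against its markers. Besides C1qa, C1qb and C1qc, both remaining markers of the list were highest in these cells in all 5 libraries when set against Csf1r-positive cells with at most 2 C1q UMIs, S100a8 and S100a9-high cells, Cd79-positive cells and Cxcl12-rich cells. Ms4a7, a membrane protein of macrophages, stood at 839, 1031 and 1581 CPM in the young libraries (control, naive and exhausted) and at 732 and 824 in the old ones (aged and aged-injury). Spic stood at 425, 441 and 292 CPM in the young libraries (control, naive and exhausted) and at 357 and 256 in the old ones (aged and aged-injury). Of 14 broader macrophage markers other than Csf1r, 9 were highest in these cells in every library, among them Adgre1, Cd68, Mertk, Fcgr1, Mrc1, Fcer1g, Aif1 and Siglec1. The others were Vcam1 (highest in them in 4 libraries), Cd163 (in 3) and Cd14, Lyz2 and Tyrobp (in 1 each).

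Set against the Csf1r-positive cells with little C1q, the genes with the largest lowest ratio over the 5 libraries were Pf4 (149-fold or more in every library), Ccl8 (92.8), Ms4a7 (90.8), Hpgds (54.7), Spic (45.4) and Gdf15 (31.6), with a 0 in the low-C1q cells set to 3 counts. Pf4 encodes a platelet chemokine that tissue macrophages also make, and Ccl8 a chemokine that attracts monocytes. They were followed by the scavenger receptor Stab1 (24.4), Mrc1 (23.6), the complement receptor C3ar1 (19.5), Slc7a8 (16.1), Rgs1 (13.0), the selenium carrier Selenop (12.8), the lysosomal protease Lgmn (12.7), the lipid carrier Apoe (11.1) and Aif1 (10.1). The low-C1q cells also held much RNA of other cell types. In aged-injury their 13 stromal markers summed to 78700 CPM, beside 78935 in the Cxcl12-rich cells, and 63 of 114 had a tdTomato UMI. In the other libraries their 12 neutrophil markers summed to between 34528 CPM (naive) and 49552 (aged).

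Of 10480 genes with at least 20 CPM in any of these 5 classes, 730 (6.97%) were highest in the macrophages in all 5 libraries. By function, 16 of 22 genes of the lysosomal list were, among them the cathepsins Ctsb, Ctsc, Ctsd, Ctsh, Ctss and Ctsz. The iron-recycling list had 9 of 17, including Hmox1, the biliverdin reductases Blvra and Blvrb, the ferritin chains Fth1 and Ftl1 and the haem transporter Slc48a1. The lipid-associated list had 12 of 20, the MHC class II list 8 of 14 and the list for uptake of apoptotic cells 6 of 21 (Mertk, Axl, Havcr2, Stab1, Cd36 and Cd300a). The neutrophil, B cell, T and NK cell, dendritic cell, erythroid, mast cell, osteoclast, stromal and endothelial lists had 0, the megakaryocyte list had 2 of 6 (Pf4 and Ppbp), the monocyte list had 1 of 9 (Cx3cr1), and the cell division list had 0 of 18.

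**Figure D2:**
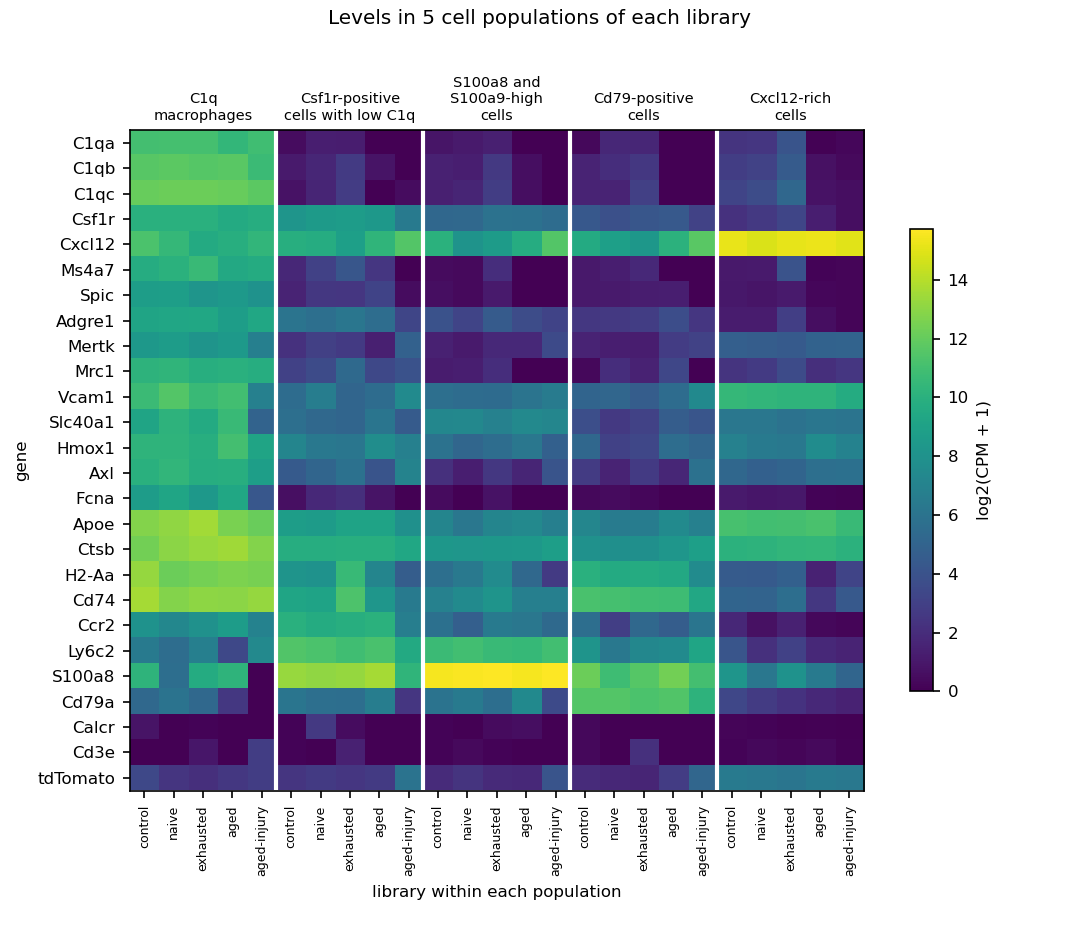
Levels of 26 genes, as log2(CPM + 1), in 5 cell classes of each library; each column is 1 class in 1 library. C1qa, C1qb, C1qc, Csf1r and Cxcl12 took part in choosing the macrophages, and Ms4a7 and Spic are highest in the macrophage columns of all 5 libraries.

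RNA of other cell types was present in the macrophage sums at levels that differed between libraries. The 12 neutrophil markers summed to 4458, 311 and 2946 in the young and 5326 and 12.2 in the old libraries (CPM, in the same order), and 1 cell held 93.9% of the S100a8 UMIs in control and 1 cell 97.6% in aged. The 9 erythroid markers summed to 8002, 1200.5 and 4869 in the young and 808 and 61.0 in the old libraries, the 13 stromal markers to 6775, 4749.9 and 2738 in the young and 5530.3 and 5502 in the old libraries and the 9 B cell markers to 562, 2833 and 2091 in the young and 262 and 317 in the old libraries. The T and NK cell markers stayed at 0 to 9.61 CPM, and Gzma, the platelet gene Gp1bb and the basophil gene Mcpt8 had 0 UMIs in every library. Cells with Cxcl12 at 50 or more per 10000 numbered 9 of 67 in control, 9 of 122 in naive, 16 of 362 in exhausted, and 0 of 11 and 1 of 6 in the aged and aged-injury libraries. Their part in the differences between libraries was not tested.

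Within each young library the macrophages were not uniform. Vcam1, the adhesion molecule of erythroblast-island macrophages, ran over the cells from 0 to 9057 CPM with a median of 848 in control, from 0 to 10817 CPM with a median of 2173 in naive and from 0 to 11842 CPM with a median of 635 in exhausted. It was seen in 60 of 67, 109 of 122 and 264 of 362 cells, against 16.7%, 8.72% and 7.40% of the shallower Cd79-positive cells. Ferroportin (Slc40a1) ran from 0 to 3007 CPM with a median of 106 in control, from 0 to 9499 CPM with a median of 572 in naive and from 0 to 8346 CPM with a median of 122 in exhausted.

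Cells high in Vcam1 were also high in Slc40a1. Across cells the Spearman correlation of their CPM was 0.83 in control (67 cells), 0.76 in naive (122) and 0.78 in exhausted (362), and 0.60, 0.62 and 0.66 with every cell thinned to 2000 UMIs. Vcam1 with Fcna gave 0.80, 0.75 and 0.76, and 0.62, 0.49 and 0.61 after thinning. Vcam1 with Spic gave 0.61, 0.41 and 0.64, and 0.44, 0.26 and 0.45 after thinning. With Ccr2, the receptor by which monocytes leave and enter tissues, Vcam1 gave -0.66, -0.56 and -0.53, and -0.53, -0.42 and -0.44 after thinning. These cells share a library, and the values describe them. Vcam1 with the UMIs per cell gave 0.06, 0.10 and 0.17.

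The Ccr2-bearing cells formed the other end of the range. A Ccr2 UMI was seen in 23 of 67 macrophages in control, 26 of 122 in naive and 112 of 362 in exhausted, against 3.03%, 1.74% and 2.73% of Cd79-positive cells. In control, Vcam1 summed to 278 CPM in cells with Ccr2 and 2514 in cells without. The same split gave 811 and 3585 in naive and 654 and 1992 in exhausted. C1qc, which took part in choosing the cells, was also lower in the cells with Ccr2, at 3149.6 against 4932 CPM in control, 2849 against 5266 in naive and 2769.5 against 5298 in exhausted. Cells of both kinds were present in each young library.

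H2-Aa, a chain of the MHC class II molecule that presents antigen to CD4+ T cells, went the other way. It summed to 11044 CPM in cells with Ccr2 and 9075 in cells without in control, to 6966 and 3814 in naive, and to 10809 and 3659.7 in exhausted. The gap between the splits was widest in exhausted. H2-Aa and the class II invariant chain Cd74 went together across cells, with Spearman values of 0.95, 0.97 and 0.97.

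Gpnmb, a lysosomal glycoprotein of lipid-laden macrophages, marked a further fraction that was almost absent from control. A Gpnmb UMI was seen in 1 of 67 cells in control, 22 of 122 in naive and 123 of 362 in exhausted, and in 1.26%, 0.291% and 1.13% of Cd79-positive cells, so the control value is at the background. After thinning to 2000 UMIs the shares were 0%, 4.92% and 16.4%. In exhausted, the Gpnmb-positive cells had 2047 CPM of the fatty-acid binding protein Fabp5 against 431 in the other cells, 805 against 321 of the lipid receptor Trem2, 1362 against 697 of cathepsin D (Ctsd) and 17982 against 7877 of lysozyme (Lyz2). H2-Aa was lower in them, at 3565 against 6909.8 CPM. They were also deeper, with a median of 22876 against 17086 UMIs. Gpnmb and Fabp5 gave a Spearman value of 0.57 over the 362 cells, and 0.46 after thinning. In naive the relation was weaker, at 0.32 over the 122 cells and 0.12 after thinning. There Fabp5 stood at 917 CPM in the Gpnmb-positive cells and 321 in the other cells.

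**Figure D3:**
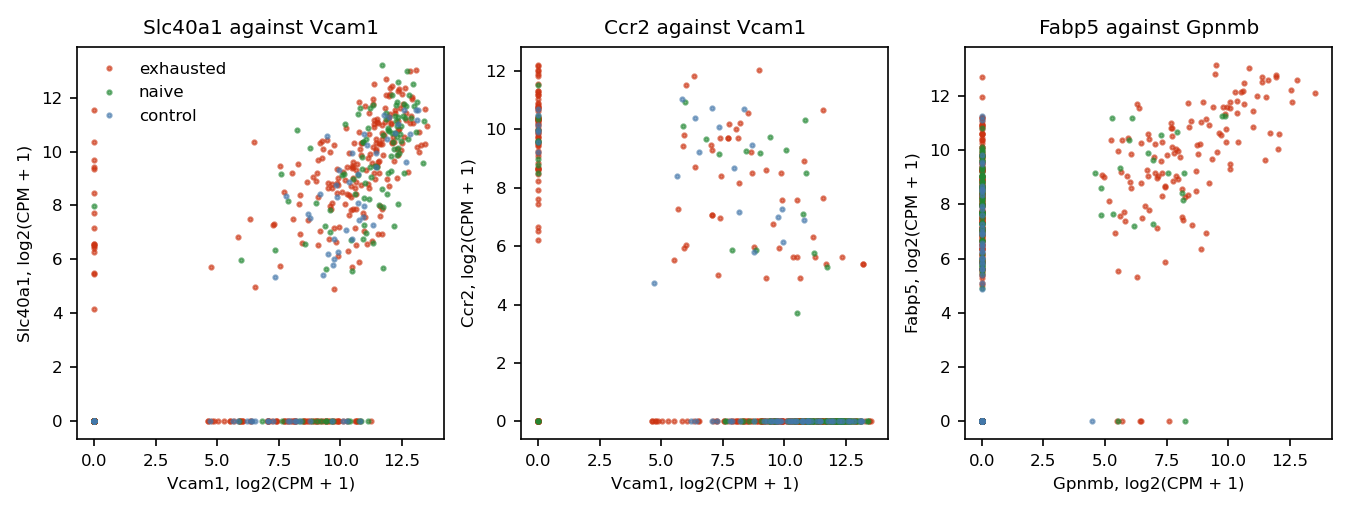
Levels of Slc40a1 and Ccr2 against Vcam1, and of Fabp5 against Gpnmb, as log2(CPM + 1), each point 1 macrophage of a young library. Slc40a1 goes with Vcam1 (Spearman 0.83 in control, 0.76 in naive and 0.78 in exhausted), Ccr2 lies mostly in cells low in Vcam1, and nearly all cells with Gpnmb are from naive or exhausted.

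C1qa, C1qb and C1qc, which took part in choosing the cells, and the receptors Mrc1 and Axl differed by less than 2-fold between the 3 young libraries. For the C1q genes the rule itself limits how far the levels can differ. C1qa stood at 2090.2 CPM in control, 2137 in naive and 2204 in exhausted, C1qb at 3158 CPM in control, 3439.9 in naive and 3028 in exhausted and C1qc at 4289.5 CPM in control, 4656 in naive and 4636 in exhausted. Mrc1 stood at 1168 CPM in control, 1247 in naive and 946 in exhausted, and Axl at 1026 CPM in control, 1296 in naive and 894 in exhausted. Vcam1 and Slc40a1 were highest in naive: Vcam1 stood at 1708 CPM in control, 2885 in naive and 1642 in exhausted, and Slc40a1 at 572 CPM in control, 1142 in naive and 765 in exhausted. Slc40a1 was 1.998-fold higher in naive than in control (1.84 to 2.17), just under the 2-fold limit used for calling a gene. Vcam1 was 1.69-fold higher (1.61 to 1.77) in naive than in control and 1.76-fold lower (1.71 to 1.81) in exhausted than in naive.

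**Figure D4:**
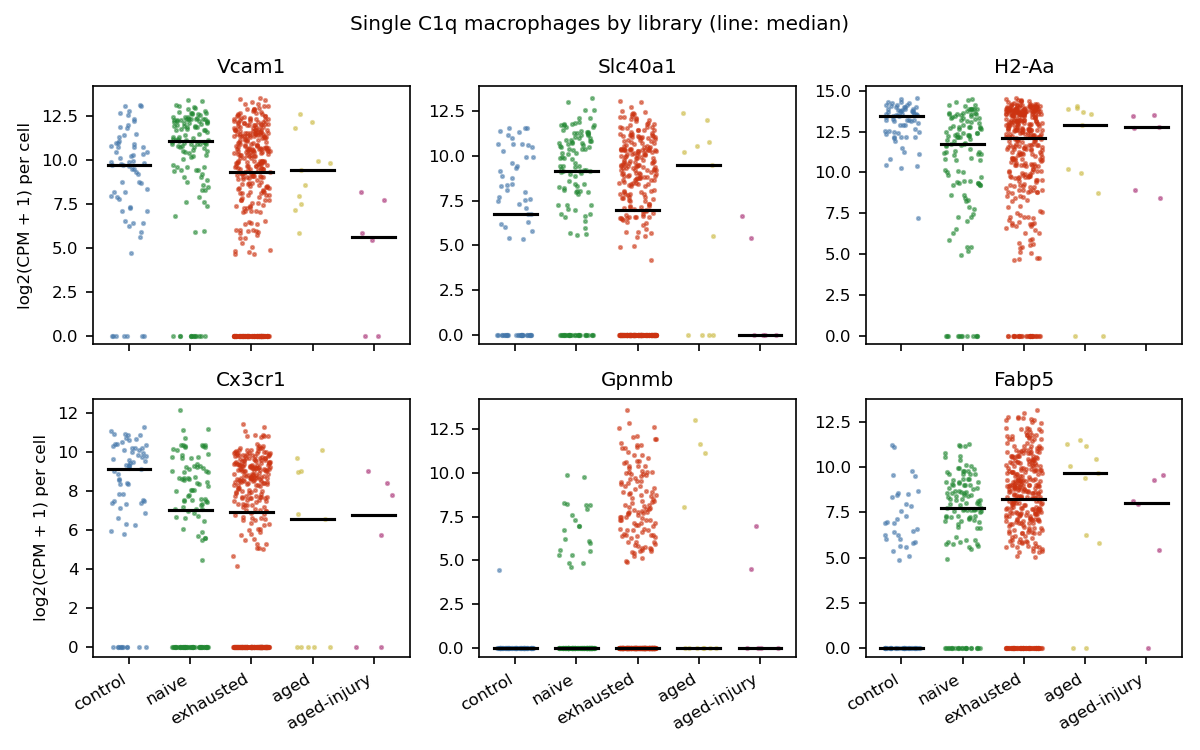
Levels of Vcam1, Slc40a1, H2-Aa, Cx3cr1, Gpnmb and Fabp5, as log2(CPM + 1), each point 1 macrophage, in the 5 libraries. Gpnmb is seen in 1 of 67 control, 22 of 122 naive and 123 of 362 exhausted cells, and the 6 aged-injury cells hold little Vcam1 and Slc40a1.

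In the comparison of naive with control, which asks how macrophages in marrow regrown after 1 ablation differ from those of uninjured marrow, the genes called lower included H2-Aa, H2-Ab1, H2-Eb1 and Ciita of the MHC class II list, Il1b and Osm of the inflammatory cytokines, and Ccl2 and Ccl4 of the chemokines. Those called higher included Fabp5, Fabp4, Spp1 and Gpnmb of the lipid-associated list. In each of these lists most measured members were not called. A gene counted as measured with at least 20 CPM in either library and at least 10 UMIs in the higher one, and as called with a ratio of at least 2 in either direction whose counting interval left out 1. Of 7015 genes measured, 345 (4.92%) were called, 145 (2.07%) higher in naive and 200 (2.85%) lower, and the median log2 ratio of all genes was 0.06.

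Of 10 measured MHC class II genes, 4 were called lower and 0 higher, all 10 had a log2 ratio below 0, and the list median was -0.91. H2-Aa stood at 9785 CPM in control, 4609.6 in naive and 5532 in exhausted. Over the cells it ran from 149.7 to 23698 CPM with a median of 11056 in control and from 0 to 23349.7 CPM with a median of 3368 in naive, so the ranges overlapped. H2-Aa was 2.12-fold lower (95% counting interval 2.07 to 2.18) in naive. The partner chain H2-Ab1 was 2.21-fold lower (2.15 to 2.27) and H2-Eb1 2.37-fold lower (2.30 to 2.43). Ciita, the coactivator that switches on class II genes, was 2.27-fold lower (1.75 to 2.95). Cd74 was 1.81-fold lower (1.77 to 1.85), short of 2-fold. The H2-Aa fold lies close to the limit: without the tenth of cells with the most UMIs the log2 ratio of H2-Aa was -0.98. H2-Aa was seen in 67 of 67 control cells and 110 of 122 naive cells, and in 97.0% and 79.5% after thinning. Among cells without Ccr2, H2-Aa stood at 9075 CPM in control and 3814 in naive, and among cells with Ccr2 at 11044 and 6966, a smaller gap of under 2-fold.

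Of 14 inflammatory cytokine genes measured, 6 were called lower and 0 higher, with a median of -0.87. Il1b, the interleukin of acute inflammation, stood at 517 CPM in control, 121 in naive and 427 in exhausted and was 4.27-fold lower (3.72 to 4.91) in naive, or 3.73-fold lower without the control cell richest in it. It was seen in 33 of 67 control cells and 37 of 122 naive cells, against 4.29% and 2.03% of Cd79-positive cells. Osm, which signals to stromal and bone-forming cells, was 2.78-fold lower (1.95 to 3.98). Il10 and Ptgs2 were also called lower, but 1 control cell held 78.1% of the Il10 UMIs and 80% of the Ptgs2 UMIs came from 1 control cell. Without the richest cell of each gene, Il10 was 1.19-fold lower and Ptgs2 was 2.22-fold higher in naive. Tnf was 2.11-fold lower (1.59 to 2.80), and 1.43-fold lower without its richest cell.

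Of 16 chemokine genes measured, 5 were called lower (Ccl2, Ccl3, Ccl4, Ccl7 and Cxcl14) and 2 higher (Ccl5 and Cxcl9), with a median of -0.53. Cxcl14 was seen in 31.6% of Cd79-positive cells in control and in 13.1% in naive. Ccl4, a chemokine that attracts monocytes and T cells, stood at 824 CPM in control, 236 in naive and 524 in exhausted and was 3.49-fold lower (3.15 to 3.86). Ccl2, the ligand of Ccr2, was 2.27-fold lower (1.97 to 2.62). The 2 higher calls each rested on 1 naive cell, which held 64.8% of the Ccl5 UMIs and 66.2% of the Cxcl9 UMIs. Among receptors, the fractalkine receptor Cx3cr1 stood at 637 CPM in control, 276 in naive and 268 in exhausted and was 2.31-fold lower (2.08 to 2.56). Its median over cells was 558 CPM in control and 127 in naive. The chemokine receptor Ccr1 was 5.71-fold lower (3.94 to 8.46). Among 20 immediate early and heat shock genes, whose levels also respond to tissue dissociation, 3 were called lower, with a median of -0.63, including Egr1, which was 2.79-fold lower (2.57 to 3.04).

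Of 18 lipid-associated macrophage genes measured, 4 were called higher in naive and 0 lower, with a median of 0.58. Fabp5 stood at 170.2 CPM in control, 469 in naive and 1097 in exhausted and was 2.75-fold higher (2.38 to 3.20) in naive. Its median over cells was 0 CPM in control and 209 in naive. Spp1 (osteopontin) was 3.01-fold higher (2.19 to 4.22). Fabp4 was 6.99-fold higher (5.47 to 9.08), and it was also higher in the remaining filtered cells, at 111 CPM in control and 997 in naive. Gpnmb had 1 UMI in control, which gives a ratio of 49.3 with an interval of 8.65 to 1967. Of 21 lysosomal genes, 19 had a log2 ratio above 0 but 2 were called, Gpnmb and Dpp7, with a median of 0.29. Of 23 interferon-response genes, 4 were called higher (Oas1a, Ifi44, Gbp2 and Cxcl9).

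In the lists tied to the clearing of red and dying cells, the called share was near that of all genes (4.92%). Of 16 iron-recycling genes measured, 0 were called higher and 1 lower, with a median of -0.01, and of 17 genes for uptake of apoptotic cells, 0 were called higher and 1 lower (Cd5l), with a median of 0.00. The 1 iron-recycling gene was the haemoglobin scavenger receptor Cd163, which stood at 245 CPM in control, 122 in naive and 85.8 in exhausted and was 2.00-fold lower (1.70 to 2.35) in naive, or 1.58-fold lower without its richest control cell. Other genes with large ratios were Il18bp, a soluble inhibitor of interleukin 18 (2.92-fold higher (2.20 to 3.93)), and Fkbp5, a gene induced by glucocorticoids (2.73-fold higher (1.94 to 3.92)). Beside these values, the neutrophil markers summed to 4458 CPM in control and 311 in naive and the stromal markers to 6775 and 4749.9.

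In exhausted against control, macrophages of marrow regrown after 2 ablations were set against the same uninjured library, so this comparison shares its control cells with naive against control. Of 6845 genes measured, 455 (6.65%) were called, 128 (1.87%) higher in exhausted and 327 (4.78%) lower, and the median log2 ratio of all genes was -0.04. TMM scaling, which sets libraries to the bulk of their genes, moved that median to 0.14 and the split to 209 higher and 257 lower. The genes called higher included Gpnmb, Fabp5, Trem2 and Spp1 of the lipid-associated list, Ctsd of the lysosomal list and Lyz2, and those called lower included Cx3cr1, Cd163 and Bmp6. Most measured members of the lipid-associated, lysosomal and MHC class II lists were not called.

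Of 18 lipid-associated genes measured, 4 were called higher and 0 lower, with a median of 0.67. Gpnmb stood at 0.803 CPM in control, 39.6 in naive and 441 in exhausted, and 1 cell held 9.55% of the exhausted UMIs. Against the 1 UMI of control its ratio was 549 with an interval of 98.5 to 21698. Fabp5 was 6.44-fold higher (5.62 to 7.42), and its median over cells was 304 CPM. Trem2 stood at 219.9 CPM in control, 383 in naive and 520.4 in exhausted and was 2.37-fold higher (2.09 to 2.68). Spp1 was 6.22-fold higher (4.63 to 8.56), and 4.79-fold higher without its richest cell. Of 22 lysosomal genes, 21 had a log2 ratio above 0 and 3 were called higher, with a median of 0.60. Ctsd stood at 436 CPM in control, 860.3 in naive and 971 in exhausted and was 2.23-fold higher (2.04 to 2.44). Ctsk, the collagen-cutting cathepsin of osteoclasts, was called higher, but 1 cell held 60.9% of its exhausted UMIs and the ratio fell below 1 without it.

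Lyz2 stood at 4658 CPM in control, 5621 in naive and 12039 in exhausted. Over the cells it ran from 0 to 18302 CPM with a median of 4107 in control and from 0 to 59524 CPM with a median of 9353 in exhausted. It was 2.58-fold higher (2.52 to 2.65) in exhausted. Lyz2 is also a neutrophil and monocyte gene, and the neutrophil markers summed to 2946 CPM in exhausted and 4458 in control, where 1 cell held most of the S100a8 UMIs. Of 10 neutrophil markers measured, 4 were called higher in exhausted (Mmp8, Retnlg, Elane and Mpo) and 1 lower (Camp), and the list median of -0.50 became 3.14 without the tenth of cells with the most UMIs. Their part in the Lyz2 value was not tested. Of 23 interferon-response genes, 7 were called higher and 0 lower, with a median of 0.57; the guanylate-binding protein Gbp2 was 3.37-fold higher (2.48 to 4.68), Ifit3 2.44-fold higher (1.57 to 4.0) and the transcription factor Irf7 2.04-fold higher (1.46 to 2.93). Of 17 chemokine genes, 4 were called higher (Ccl5, Cxcl1, Cxcl2 and Cxcl9) and 1 lower (Cxcl14). Cxcl14 was seen in 31.6% of Cd79-positive cells in control and in 7.40% in exhausted. Cxcl2, a neutrophil attractant, stood at 52.2 CPM in control, 76.4 in naive and 534 in exhausted and was 10.2-fold higher (8.01 to 13.3). Ccl5 was 14.9-fold higher (8.51 to 29.0). Saa3, an acute-phase protein, was not seen in the 67 control cells and was seen in 53 of 362 exhausted cells, at 507 CPM, at least 210.4-fold higher with 3 counts over the control cells as the floor.

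On the lower side, of 11 MHC class II genes 1 was called lower (H2-DMb1) and 1 higher (Cd40), with a median of -0.74. H2-Aa was 1.77-fold lower (1.73 to 1.80) and H2-Eb1 1.91-fold lower (1.87 to 1.95), short of 2-fold. Cx3cr1 was 2.38-fold lower (2.19 to 2.58) and Cd163 2.85-fold lower (2.48 to 3.27). Bmp6, a bone morphogenetic protein that also regulates iron, was 4.13-fold lower (3.05 to 5.56), and it was lower in the remaining filtered cells as well, at 526 CPM in control and 239.7 in exhausted. Of 17 cell division genes, 6 were called lower and 0 higher, with a median of -0.73; 1 control cell held 51.3% of the Top2a UMIs, and without it Top2a was 1.14-fold lower. Without the tenth of cells with the most UMIs the median of the cell division list was 0.33, so its direction turned. Of 11 stromal markers, 8 were called lower, with a median of -1.60, and complement genes called lower included C1ra, C1s1 and Serping1. Each of these complement genes was highest in the macrophages in 0 libraries. They were also seen in fewer Cd79-positive cells in exhausted than in control. The shares were 3.70% against 11.6% for C1ra, 1.93% against 9.34% for C1s1 and 14.6% against 47.5% for Serping1. Of 14 inflammatory cytokine genes, 1 (Il1a) was called higher and 0 lower, with a median of 0.06.

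Exhausted against naive compares 2 ablations with 1, at the same age and the same time after the last surgery. Of 6764 genes measured, 276 (4.08%) were called, 99 (1.46%) higher in exhausted and 177 (2.62%) lower, and the median of all genes was -0.09. TMM scaling moved that median to 0.11 and the split to 155 higher and 127 lower. The genes called higher in exhausted included Il1b, Osm and Il1rn of the inflammatory cytokines, Ccl8 and Cxcl2 of the chemokines, Gpnmb and Lyz2, and those called lower included Fabp4 and Fkbp5.

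Of 14 inflammatory cytokine genes, 6 were called higher and 0 lower, with a median of 0.88. Il1b was 3.53-fold higher (3.13 to 3.98) in exhausted and was seen in 187 of 362 exhausted cells against 37 of 122 naive cells. Osm was 2.99-fold higher (2.27 to 4.0), Il10 4.61-fold higher (3.05 to 7.31) and the receptor antagonist Il1rn 2.14-fold higher (1.81 to 2.54). Of 17 chemokine genes, 8 were called higher and 1 lower, with a median of 0.63. Cxcl2 was 6.99-fold higher (6.05 to 8.13), Ccl5 6.66-fold higher (5.07 to 8.93), Ccl8 2.70-fold higher (2.48 to 2.94) and Ccl4 2.22-fold higher (2.04 to 2.42). Cd14, the co-receptor for bacterial lipopolysaccharide, stood at 336 CPM in control, 222 in naive and 515 in exhausted and was 2.32-fold higher (2.12 to 2.54). Neutrophil markers moved with these genes: 9 of 10 were called higher in exhausted, with a median of 3.85, and their sum was 311 CPM in naive and 2946 in exhausted. In the remaining filtered cells Il1b stood at 78.8 CPM in naive and 323 in exhausted, and Cxcl2 at 72.7 and 194. A subset of 11 naive and 19 exhausted macrophages had fewer than 5 UMIs of neutrophil, B cell, erythroid and endothelial markers together. This limit is not scaled to depth, so cells with few UMIs pass it more easily. In the subset Il1b (log2 ratio 2.81), Ccl8 (1.48), Il1rn (3.24) and Lyz2 (1.42) were higher in exhausted. In these few cells Cxcl2 (-1.40), Ccl4 (-1.68), Ccl5 (-0.22) and Il10 (-0.80) were lower in exhausted. Of the 276 calls, 20 recurred in the subset. The part of other cells' RNA in these differences was not tested. Ccl8 stood at 0.439 and 2.62 CPM in the remaining filtered cells, far below its level in the macrophages.

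Gpnmb was 11.1-fold higher (9.12 to 13.7), 10.1-fold higher without its richest cell, Fabp5 2.34-fold higher (2.20 to 2.49) and Lyz2 2.14-fold higher (2.10 to 2.18). Spp1 was 2.07-fold higher (1.82 to 2.36), or 1.59-fold without its richest cell. Fabp4 was 4.31-fold lower (3.89 to 4.76) in exhausted and Fkbp5 5.30-fold lower (4.23 to 6.67). Siglec1, the sialic acid receptor of erythroblast-island macrophages, stood at 93.1 CPM in control, 111 in naive and 54.2 in exhausted and was 2.04-fold lower (1.75 to 2.39), or 1.94-fold lower without its richest cell. Fcna was 1.83-fold lower (1.71 to 1.95), short of 2-fold. Of 11 MHC class II genes 0 were called, with a median of 0.31; H2-Aa was 1.20-fold higher (1.18 to 1.23). Of 14 cell division genes, 3 were called lower (Top2a, Mcm5 and Ccna2), with a median of -0.80, which was 0.24 without the tenth of cells with the most UMIs. Of 12 stromal markers 7 were called lower, with a median of -1.10, and of 8 erythroid markers 5 were called higher and 1 lower.

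**Figure D5:**
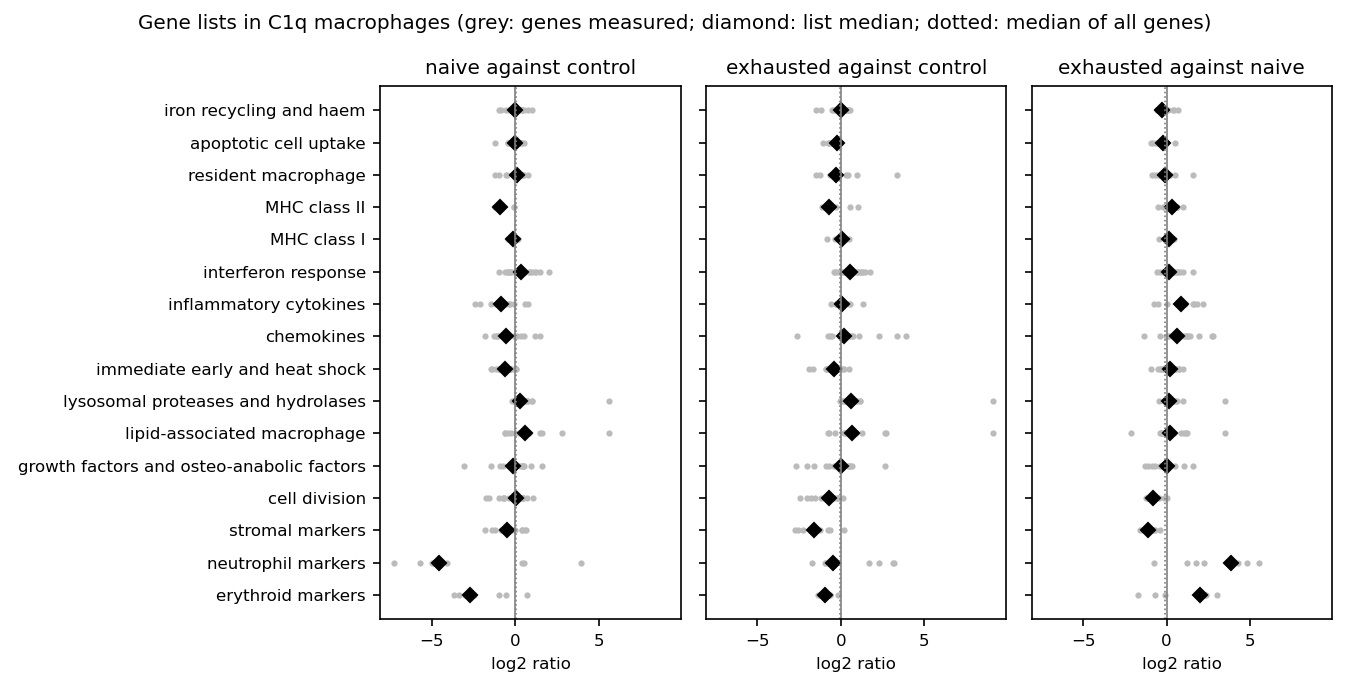
Log2 ratios of gene lists in the 3 comparisons of young libraries: grey points are the measured genes of a list, diamonds the list median, and the dotted line the median of all genes measured. MHC class II lies below 0 in naive against control (median -0.91) and exhausted against control (-0.74), inflammatory cytokines lie below 0 in naive against control (-0.87) and above 0 in exhausted against naive (0.88).

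The uninjured aged library held 11 macrophages. In aged against control 694 of 5969 genes (11.6%) were called, 270 (4.52%) higher in aged and 424 (7.1%) lower, around a median of -0.23. The minimum of 10 UMIs in the higher library asks for a higher CPM where a library has fewer UMIs. With no filter beyond 1 count, 515 were called higher and 424 lower, around 0.45, so the balance of directions depended on the filter. Of 18 lipid-associated genes 8 were called higher and 1 lower, with a median of 0.87. Gpnmb stood at 1465 CPM in aged, in 4 of 11 cells, with 43.5% of the UMIs in 1 cell, and Fabp5 was 6.65-fold higher (5.50 to 8.04), or 5.26-fold without its richest cell. Of 21 lysosomal genes 5 were called higher and 0 lower, with a median of 0.61. Slc40a1 was 2.85-fold higher (2.49 to 3.24) in aged, or 2.03-fold without its richest cell. Of 16 chemokine genes 9 were called lower and 2 higher, and of 17 cell division genes 10 were called lower. Of 10 MHC class II genes 3 were called lower, with a median of -0.65. Of 19 interferon-response genes 4 were called lower and 0 higher, with a median of -0.86, and all 19 had a log2 ratio below 0. Cd163 had 0 UMIs in the 11 aged cells.

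Aged-injury held 6 macrophages, in which 1 cell supplied up to all UMIs of a gene. Against aged, 897 of 4153 genes (21.6%) were called, 469 (11.3%) higher and 428 (10.3%) lower, around a median of -0.02. TMM scaling gave 350 higher and 528 lower around -0.16, and no filter beyond 1 count gave 638 and 461 around 0.30. Slc40a1 stood at 572, 1142 and 765 CPM in the young libraries (control, naive and exhausted) and at 1626 and 30.5 in the old ones (aged and aged-injury), and was 53.3-fold lower (22.6 to 165) in aged-injury than in aged. Vcam1 stood at 116 CPM in aged-injury, 17.4-fold lower (11.0 to 29.1), and Fcna at 18.3. C1qc, which took part in choosing the cells, stood at 4289.5, 4656 and 4636 CPM in the young libraries (control, naive and exhausted) and at 4361 and 3477 in the old ones (aged and aged-injury). Of 20 interferon-response genes 16 were called higher and 0 lower, with a median of 2.15; Irf7 was 9.41-fold higher (2.83 to 49.1) and was seen in 5 of 6 cells against 2 of 11, but its log2 ratio was -0.71 with every cell thinned to 2000 UMIs. Of 18 cell division genes, 11 were measured and all 11 were called higher, with 1 cell holding 79.4% of the Top2a UMIs. A gene with fewer than 10 UMIs in aged counted as measured only if it was higher in aged-injury. The count of higher calls is therefore partly set by the filter and is a description, also for the interferon-response list. Ccl2 stood at 326, 144 and 193 CPM in the young libraries (control, naive and exhausted) and at 9.51 and 579.5 in the old ones (aged and aged-injury). Of 18 lipid-associated genes 8 were called lower and 1 higher.

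Aged-injury against naive sets marrow of 18 months at 1 week against marrow of 15 weeks at 2 weeks after 1 ablation, so age and time after surgery cannot be told apart. Of 5607 genes 691 (12.3%) were called, 299 (5.33%) higher and 392 (6.99%) lower, around a median of -0.22. TMM scaling gave 227 higher and 536 lower around -0.32. With no filter beyond 1 count, 531 were called higher and 392 lower, around 0.82, so the balance of directions depended on the filter here too. Of 21 interferon-response genes 10 were called higher and 1 lower, with a median of 1.02. Slc40a1 was 37.4-fold lower (16.0 to 115) in aged-injury and Vcam1 24.9-fold lower (15.9 to 41.4). Ccl8 was 5.33-fold higher (4.55 to 6.23) and was seen in 5 of 6 cells. Of 10 MHC class II genes 1 was called higher and 0 lower, with a median of 0.39.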

How the data were processed

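Single-cell RNA-seq of 5 libraries, 1 per group, was used as the count matrices that the authors deposited, in which each value is the number of UMIs of a gene in a cell. Seurat 5.1 and the genome build GRCm39 are named in the submitters' processing notes; an aligner, an annotation and a cell or doublet filter were not given in the sources used here. The members, gene lists and comparisons were chosen with earlier results of these data known. Cells were chosen by the rule in the report, without clustering. UMIs were summed per library and expressed as CPM; with 1 library per group no test was run. Ratios carry exact conditional binomial 95% intervals, shares carry Clopper-Pearson intervals, and both cover counting error only. A gene at 0 was set to 3 counts over the group. Thinning to 2000 UMIs per cell left out 2 shallower cells, both in exhausted. Genes named in the text are members of 38 gene lists or were taken by rank. Up to 12 called genes per comparison and direction had the largest ratios. These had at least 50 CPM, at least 30 UMIs and detection in at least 10% of macrophages in the higher library. Their CPM there was not below that in the other filtered cells of that library. Mitochondrial, ribosomal, predicted, immunoglobulin and haemoglobin genes and markers of other cell classes were left out of this choice. The 15 genes set against Csf1r-positive cells with little C1q had the largest lowest ratio outside the C1q genes. They had at least 100 CPM in macrophages of every library. TMM factors came from edgeR 4.0.16. Python 3.11.15, numpy 2.4.6, scipy 1.17.1 and pandas 2.3.3 were used. The ratio and its calls were also run on simulated counts with counting error only, which cannot show the effect of single rich cells. Of unchanged genes, 13 of 6584 were called in naive against control, 4 of 6235 in exhausted against control and 0 of 6265 in exhausted against naive. In aged against control 126 of 5615 were called, in aged-injury against aged 108 of 3810 and in aged-injury against naive 114 of 5286. Promoters are RefSeq's for GRCm38.p6, which is not the build of the files.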

Additional observations from a re-analysis of the deposited data

Results flagged for a closer look

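The share of C1q macrophages differed in direction between the 2 ages. In mice of 15 weeks the share was 3.21 times as high after 1 ablation (naive) as in uninjured marrow, whereas in mice of 18 months it was 0.212 times as high (aged-injury over aged, 6 of 19497 cells against 11 of 7560). The young library was collected 2 weeks after surgery and the old one 1 week after, so age and time after surgery cannot be told apart, and the difference between the effects was not tested.

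Among genes of the lists, 5 were called in opposite directions in the 2 contrasts and remained at least 2-fold apart without the cell richest in each. Fabp4 had a log2 ratio of 2.81 in naive over control and -4.76 in aged-injury over aged. Fabp5 had 1.46 and -1.63, Gpnmb 5.62 and -5.32, and Spp1 1.59 and -3.06. Osm went the other way, with -1.48 in the young libraries and 4.53 in the old ones. Some of these values changed with the processing: in aged-injury against aged, Spp1 was at 5.58 without the Csf1r condition and at 1.46 with cells thinned to 2000 UMIs, Osm was at 0.29 after thinning, and Fabp5 was at -0.93 without the tenth of cells with the most UMIs. The values from mice of 18 months rest on 6 and 11 cells, and these differences were not tested.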

How the results depend on the processing

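No paired analysis was possible because each group is 1 library. Over cells with Cxcl12 under 150 per 10000 the macrophage shares were 1.99%, 3.76%, 8.51%, 0.504% and 0.0728%, from control to aged-injury; with every cell thinned to 2000 UMIs and a C1q threshold of 2 UMIs they were 0.548% in control and 4.81% in exhausted. With no filter on low values beyond 1 count, 905 genes were called in naive against control, 1375 in exhausted against control and 1354 in exhausted against naive. With 100 CPM and 30 counts required, 71, 99 and 77 were called in these comparisons, 223 in aged against control, 342 in aged-injury against aged and 251 in aged-injury against naive. Thinned to 2000 UMIs per cell, 259 genes were called in naive against control, 299 in exhausted against control and 376 in exhausted against naive. Of these, 69, 120 and 117 were among the 345, 455 and 276 reported for those comparisons, in the same direction. The 3 comparisons with mice of 18 months, whose sums rest on 11 and 6 cells, gave 56, 52 and 50 calls. Among those, 35, 35 and 28 were also called as reported. The causes were not tested. Without the tenth of cells with the most UMIs, 434 were called in aged against control. Leaving out cells with 5 or more UMIs of neutrophil, B cell, erythroid and endothelial markers kept 0, 11, 19, 0 and 0 cells of the 5 libraries, so that alternative was run for exhausted against naive alone, where 301 genes were called and 20 of them were among the 276 reported.

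Single genes reversed as follows, as log2 ratios. Without the tenth of cells with the most UMIs, Top2a was at 2.07 in exhausted against control, and without its richest cell (an alternative chosen after seeing the data) Ctsk was at -0.21. Ptgs2 in naive against control was at 1.15 without its richest cell and at 1.41 with Cxcl12 limited to under 50 per 10000. In aged-injury against aged, Spp1 was at 5.58 without the Csf1r condition and at 1.46 after thinning, and Irf7 at -0.71 after thinning. Without cells rich in other markers, Ccl4 was at -1.68, Ccl5 at -0.22, Cxcl2 at -1.40, Il10 at -0.80 and Csf1 at 0.11 in exhausted against naive. The causes were not tested. Of 87 list medians in the comparisons of young libraries, 35 lay below 0 in some settings and above 0 in others. Cell division ran from -0.73 to 0.33 in exhausted against control and from -0.92 to 0.24 in exhausted against naive, and neutrophil markers from -0.51 to 3.14 in exhausted against control. List medians of MHC class II stayed between -0.94 and -0.81 in naive against control and between -0.81 and -0.53 in exhausted against control over all settings run, and those of inflammatory cytokines between -1.04 and -0.64 in naive against control and between 0.72 and 1.07 in exhausted against naive.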

Other observations

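Among 27 transcription factors of macrophages measured in naive against control, 1 was called higher (Tfec) and 3 lower (Id3, Batf3 and Runx3), beside 4.92% called over all genes, with a list median of -0.07. In exhausted against control, of 28 measured, 1 was called higher (Bhlhe41) and 2 lower (Id3 and Batf3), beside 6.65% over all genes, with a median of -0.11. In exhausted against naive, 0 of 27 were called, beside 4.08% over all genes. Maf, a factor of resident macrophages, stood at 1759 CPM in control, 1873 in naive and 1553 in exhausted. Batf3, best known from cross-presenting dendritic cells, stood at 32.9 CPM in control, 8.79 in naive and 8.26 in exhausted. It was 3.74-fold lower (95% counting interval 2.18 to 6.60) in naive and 3.99-fold lower (2.62 to 6.02) in exhausted, both against the same control cells. It was seen in 28 of 67 control cells, 19 of 122 naive cells and 53 of 362 exhausted cells. Id3, an inhibitor of helix-loop-helix factors, was 2.21-fold lower in naive and 3.36-fold lower in exhausted than in control, or 1.58-fold and 2.40-fold lower without the control cell richest in it. The remaining filtered cells held more Id3 than the macrophages, at 406 CPM in control.

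Selenop, the carrier of selenium in plasma, was among the most abundant transcripts of these cells. It stood at 4347 CPM in control, 7411 in naive and 8416 in exhausted, 1.70-fold higher (1.65 to 1.76) in naive and 1.94-fold higher (1.88 to 1.99) in exhausted than in control, both short of 2-fold. Its median over cells was 4151 CPM in control, 6298 in naive and 6486 in exhausted. Cbr2, a carbonyl reductase of resident macrophages, stood at 331, 222 and 137 CPM in the same libraries and was 2.41-fold lower (2.14 to 2.70) in exhausted than in control. Of 15 growth factor genes measured in exhausted against naive, 2 were called higher (Osm and Spp1) and 2 lower (Bmp6 and Csf1). This stands beside 4.08% called over all genes, and the list median was 0.00. Csf1, the ligand of Csf1r, stood at 62.0 CPM in naive and 25.6 in exhausted and was 2.42-fold lower (1.95 to 3.01), or 2.05-fold without its richest cell. In the remaining filtered cells Csf1 was at 588 and 408 CPM, far above its level in the macrophages. Igf1 stood at 442, 606 and 607 CPM in the 3 young libraries.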
